A study of Mus musculus with 6 samples.

Results

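The genes described here are those of sterol and fatty acid synthesis in the mouse embryonic stem cell line J1, measured on 6 one-colour Illumina Mouse-6 bead arrays of total RNA. Members were chosen by name, with earlier results of these data known: 31 genes were listed under 4 headings (mevalonate steps, squalene and post-squalene steps, sterol regulators and transport, fatty acid steps), and every probe annotated to a listed symbol was taken. Of these, 28 genes had a probe, with 48 probes between them, out of 13165 genes and 27495 probes in all. Counts of members set beside the share of all probes therefore describe the list and are no test of it. Fdft1, Srebf1 and Acat2 were not analysed here. Noggin cultures received 150 ng/ml Noggin, which binds and blocks bone morphogenetic proteins outside the cell, for 3 days in the presence of leukaemia inhibitory factor (LIF), and mock cultures received none. The cells then formed embryoid bodies, the floating aggregates in which stem cells differentiate, in medium lacking LIF, and Noggin was withdrawn on the second day of that culture. RNA was taken at day 0, before aggregation, and from embryoid bodies at days 2 and 4. Each of the 6 combinations (Noggin at days 0, 2 and 4, mock at days 0, 2 and 4) was 1 array, and the series asked through which genes Noggin acts on cardiac differentiation.

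Cholesterol is built from acetyl-CoA through mevalonate, the isoprenoid diphosphates and squalene, which is closed into lanosterol and then trimmed and reduced in a chain of post-squalene steps. Fatty acids are built from the same acetyl-CoA by a carboxylase and a synthase and are then elongated and desaturated. Genes of both branches are known targets of the sterol regulatory element-binding proteins, membrane-bound transcription factors that INSIG proteins hold in the endoplasmic reticulum when sterols are plentiful. Cholesterol is also attached to hedgehog proteins in embryos, and mice that lack some enzymes of the later steps have malformations.

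The RefSeq promoter table of the mouse assembly GRCm38.p6 held a window of 300 bases, 250 before and 50 after the start, for 21 of the 28 measured genes. Promoters of Acat3, Fdps, Sqle, Stard4, Scd1, Scd2 and Fads1 were not used here. On both strands, CCAAT was found in windows of 18 of the 21 genes, against 41.1% of 27025 genes in the table, and GGGCGG in 17 of 21, against 38.2%. Both stood in 1 window for 16 of the 21, against 14.5%. The classic sterol regulatory element, searched as TCACNCCAC, was found in 1 of the 21, against 1.44%, and the E-box CACGTG in 4 of 21, against 8.09%. The 1 match of the sterol element was TCACCCCAC in the Hmgcs1 window, beginning 137 bases before the start. A match is a run of letters and no measured binding site, and a window with no match says nothing about the factor. Acaca, Fads2 and Elovl6 had no CCAAT in their windows. Windows of 4 genes are shown because they cover the branches whose levels are described next and differ in these letters: Hmgcs1 (chr13:119690101-119690400, plus strand), Cyp51 (chr5:4104648-4104947, minus strand), Nsdhl (chrX:72918271-72918570, plus strand) and Fasn (chr11:120824498-120824797, minus strand). Capitals mark the sterol element, CCAAT and GGGCGG or their reverse complements, and in Fasn a CCAAT overlaps its reverse complement.
Hmgcs1: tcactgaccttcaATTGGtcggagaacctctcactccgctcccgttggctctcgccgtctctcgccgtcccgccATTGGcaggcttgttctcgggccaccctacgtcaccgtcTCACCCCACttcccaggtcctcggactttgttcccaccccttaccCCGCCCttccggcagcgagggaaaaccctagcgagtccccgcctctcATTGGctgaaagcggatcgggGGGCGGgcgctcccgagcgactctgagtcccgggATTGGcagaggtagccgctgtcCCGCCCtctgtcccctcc
Cyp51: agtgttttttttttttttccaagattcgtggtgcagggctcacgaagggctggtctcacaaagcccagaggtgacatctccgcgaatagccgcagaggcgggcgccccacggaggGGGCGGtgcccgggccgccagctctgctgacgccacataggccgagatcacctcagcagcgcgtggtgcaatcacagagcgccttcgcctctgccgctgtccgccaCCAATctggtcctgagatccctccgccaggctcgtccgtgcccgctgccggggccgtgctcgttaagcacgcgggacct
Nsdhl: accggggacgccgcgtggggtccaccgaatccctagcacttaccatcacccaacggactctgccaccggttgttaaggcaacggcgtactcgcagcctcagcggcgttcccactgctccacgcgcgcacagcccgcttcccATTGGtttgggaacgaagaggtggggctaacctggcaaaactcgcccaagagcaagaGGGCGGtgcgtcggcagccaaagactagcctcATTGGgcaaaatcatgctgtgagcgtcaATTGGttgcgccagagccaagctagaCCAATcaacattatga
Fasn: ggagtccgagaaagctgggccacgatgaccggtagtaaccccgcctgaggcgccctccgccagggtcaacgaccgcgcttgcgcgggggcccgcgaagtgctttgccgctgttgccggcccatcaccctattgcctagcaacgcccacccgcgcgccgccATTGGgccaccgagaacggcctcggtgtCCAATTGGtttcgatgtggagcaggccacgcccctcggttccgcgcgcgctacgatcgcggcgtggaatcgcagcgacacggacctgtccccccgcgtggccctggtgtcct

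Levels are the authors' log2 signals, on which every array has a median of 7.37. The raw array medians lay between 152 and 176.55 intensity units, and the lowest probes between 91.4 and 101.4, so log2 levels near 7 are close to the floor. Stem cell markers were high at day 0, with Nanog at 13.66 on the Noggin and 13.50 on the mock array and Sox2 at 11.81 and 11.79. The treatment field of the labels reads alike on all 6 arrays, mock included, so the groups follow the source name. The labels leave it unclear whether the day 0 Noggin cells had already had their 3 days of Noggin. Nothing in the labels ties arrays to separate cultures, slides or scans, and a batch cannot be told apart from the groups. With 1 array per treatment and day, the residual of the additive fit holds any difference of the Noggin effect between days as well as noise. The SEs and p-values measure both together. A gene whose Noggin difference is confined to 1 day therefore has a wider SE in every contrast. A difference on a single day rests on 1 array against 1 and carries no p-value. These are bulk samples, in which fewer cells of a type and less RNA per cell cannot be told apart.

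Most of the pathway rose between day 0 and day 2 by similar amounts in both treatments, and at day 4 it was higher with Noggin than in mock. Of the 27 genes whose brightest probe passed the filter on dim probes, 18 rose at day 2 against day 0 and 0 fell in the limma fit over both treatments, where 14.3% of all 15168 probes rose and 13.3% fell. Among the 18, Mvd, Dhcr7 and Fads2 were above the median only on arrays of days 2 and 4. They entered the test through those arrays, so their rises against day 0 are partly built in. At day 4 all 28 measured genes were above mock with Noggin, with a median difference of 0.56 on the log2 scale, from 0.04 for Mvk to 1.56 for Scd1. Among genes above the median on both day 4 arrays, 25 of 25 were higher, where 50.3% of the 12577 such probes were. Of the 25 above the median of both day 4 arrays, 12 were at least 1.5-fold higher with Noggin and 0 were 1.5-fold lower, against 2.74% and 2.92% of those probes, and 8 of them were at least 2-fold higher, against 0.859% of probes in each direction. The corresponding numbers at day 2 were 0 higher and 1 lower of 27, against 0.219% and 0.211% of 12783 probes, and at day 0 they were 0 and 0 of 22, against 0.0156% in each direction. By any amount, 11 of these 27 genes were higher with Noggin at day 2 and 11 of these 22 at day 0, where 48.1% and 48% of such probes were. Averaged over the 3 days, 0 of the 27 genes differed between Noggin and mock by limma (smallest unadjusted p = 0.071, Msmo1, adjusted p = 0.969), where 0% of probes passed after adjustment in either direction and 2.68% had an unadjusted p under 0.05. This contrast has little power for a difference confined to day 4, which is averaged over the 3 days and also enters the residual. Even the stem cell marker Esrrb, at -3.18 on day 4, had a limma adjusted p of 0.969.

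**Figure D1:**
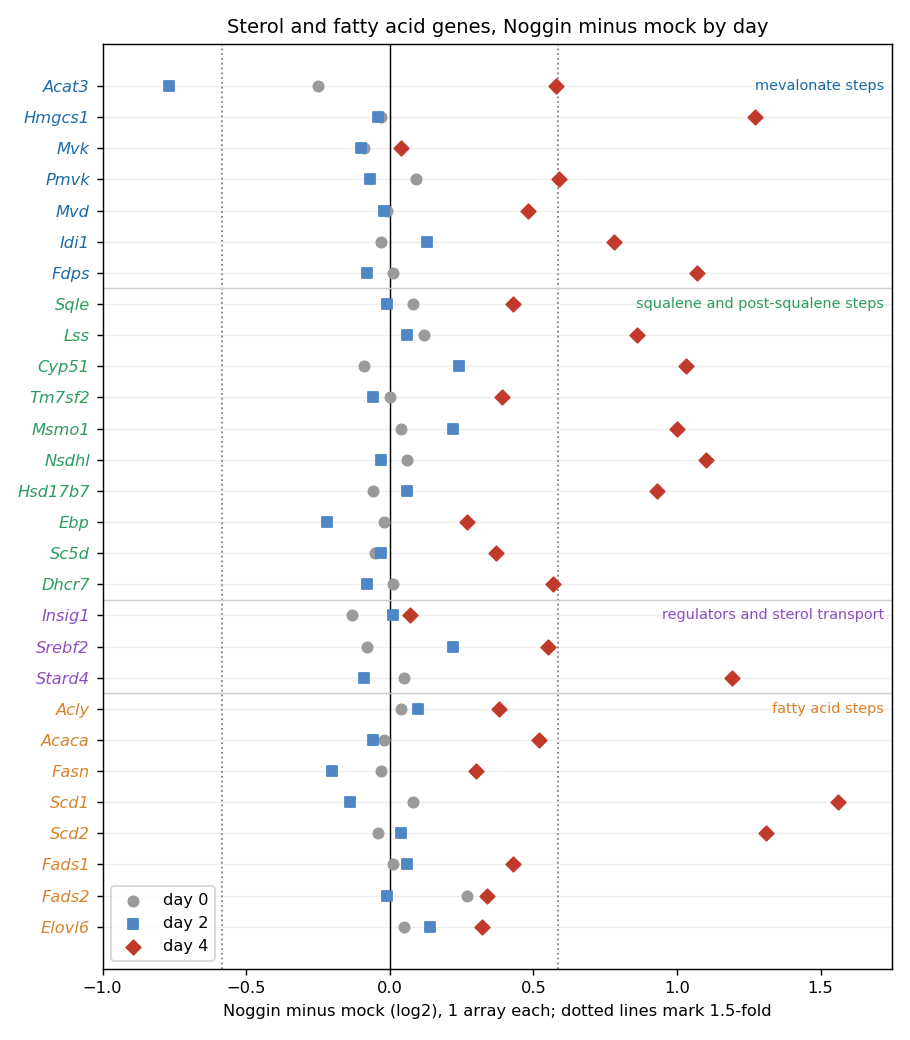
Noggin minus mock in log2 units for the brightest probe of each of the 28 genes, with grey circles for day 0, blue squares for day 2 and red diamonds for day 4, and dotted lines at 1.5-fold. The day 0 and day 2 symbols lie about 0, except Acat3 at -0.77 on day 2, and all 28 day 4 symbols lie right of 0.

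The mevalonate steps turn acetyl-CoA into farnesyl diphosphate, and 7 of their 8 listed genes were measured. Hmgcs1, the synthase that makes HMG-CoA, read 12.08, 13.57 and 13.98 at days 0, 2 and 4 with Noggin, against 12.11, 13.61 and 12.71 in mock. The 2 treatments lay within 0.04 of each other until day 2, and by day 4 the Noggin array was the highest of the 6 while mock had come down. The day 4 difference of 1.27 is 2.41-fold. Over both treatments Hmgcs1 rose by 1.50 ± 0.33 (SE) at day 2 against day 0 (adjusted p = 0.0255) and by 1.25 ± 0.33 at day 4 against day 0 (adjusted p = 0.0322).

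Fdps, which makes farnesyl diphosphate, the branch point to squalene and to prenylated proteins, had levels of 9.92, 11.70 and 11.71 with Noggin and of 9.91, 11.78 and 10.64 in mock over days 0, 2 and 4. It held its day 2 level with Noggin and lost most of the gain in mock. It had the largest fitted rise of the 27 genes at day 2, 1.82 ± 0.28 (adjusted p = 0.00938), and was 2.10-fold higher with Noggin at day 4. Its dimmer second probe gave a day 4 difference of 0.65. Idi1, the isomerase of the isoprenoid units, read 8.75, 10.14 and 10.22 with Noggin, against 8.78, 10.01 and 9.44 in mock. The isomerase therefore also held its level with Noggin, and its rise was 1.31 ± 0.20 at day 2 (adjusted p = 0.00884).

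Pmvk and Mvd, the kinase and the decarboxylase that follow mevalonate kinase, showed the same order at lower signal. Pmvk read 7.57, 8.27 and 8.51 with Noggin, against 7.48, 8.34 and 7.92 in mock, and rose by 0.78 ± 0.17 at day 2 (adjusted p = 0.023). Mvd read 7.06, 7.91 and 7.72 with Noggin, against 7.07, 7.93 and 7.24 in mock, and rose by 0.85 ± 0.14 at day 2 (adjusted p = 0.0119). In mock at day 4 Mvd was back within 0.17 of its day 0 level. Mvk, the kinase itself, stayed between 7.21 and 7.38 on all 6 arrays, close to the floor, and was not tested.

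Acat3, annotated as an acetyl-CoA acetyltransferase, was the exception among these genes. It read 7.55, 7.58 and 8.30 with Noggin, against 7.80, 8.35 and 7.72 in mock. Mock had its highest level at day 2 and Noggin at day 4, so the difference changed sign, with -0.77 at day 2 and 0.58 at day 4. It was the 1 member 1.5-fold lower with Noggin at day 2, passed in no limma contrast, and its other probe lay near 7.1 on all arrays.

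The squalene and post-squalene steps had 10 of 11 listed genes measured, and their day 4 median difference of 0.71 (10 of 10 higher with Noggin, 5 by 1.5-fold or more) was the highest of the 4 headings. The order of the headings was not tested. Sqle, the squalene epoxidase and a control point of the branch, read 9.98, 11.05 and 10.59 with Noggin, against 9.90, 11.06 and 10.16 in mock. The epoxidase peaked at day 2 in both treatments and came down in both, further in mock. It rose by 1.11 ± 0.13 at day 2 (adjusted p = 0.00421) and fell by 0.68 ± 0.13 at day 4 against day 2 (adjusted p = 0.0179). A second tested probe of Sqle read 8.32 with Noggin and 8.33 in mock at day 4, the 1 of 40 tested member probes that was not higher with Noggin.

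Lss, the cyclase that makes lanosterol, read 8.0, 9.25 and 9.11 with Noggin, against 7.88, 9.19 and 8.25 in mock. Cyp51, the lanosterol demethylase, read 8.75, 10.58 and 11.06 with Noggin, against 8.84, 10.34 and 10.03 in mock. Msmo1, a methylsterol oxidase, read 9.92, 11.61 and 11.93 with Noggin, against 9.88, 11.39 and 10.93 in mock. Cyp51 and Msmo1 went on to their highest level at day 4 with Noggin and stayed above day 0 in mock, while mock Lss returned most of the way. The rises at day 2 were 1.28 ± 0.21 for Lss (adjusted p = 0.0103), 1.67 ± 0.26 for Cyp51 (adjusted p = 0.00923) and 1.60 ± 0.23 for Msmo1 (adjusted p = 0.0076). Cyp51 and Msmo1 were 2.04-fold and 2.00-fold higher with Noggin than in mock at day 4. A second Cyp51 probe also rose at day 2 (1.23, adjusted p = 0.00549), read 9.14 and 9.16 at days 2 and 4 with Noggin, and was 1.45-fold higher with Noggin than in mock at day 4.

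Nsdhl, the decarboxylating sterol dehydrogenase, and Hsd17b7, a keto-sterol reductase, work with Msmo1 in removing methyl groups. Nsdhl read 9.79, 10.59 and 11.18 with Noggin, against 9.73, 10.62 and 10.08 in mock. Hsd17b7 read 8.11, 8.78 and 9.18 with Noggin, against 8.17, 8.72 and 8.25 in mock. Both kept climbing with Noggin after day 2 and turned down in mock, to within 0.35 and 0.08 of day 0. Neither brightest probe passed the day 2 test (differences of 0.84 ± 0.28, adjusted p = 0.0761, and 0.61 ± 0.24, adjusted p = 0.121). By treatment, the day 2 difference was 0.80 with Noggin and 0.89 in mock for Nsdhl, and 0.67 and 0.55 for Hsd17b7. The SEs of the fit also hold the day 4 difference between treatments. Nsdhl was 2.14-fold and Hsd17b7 1.91-fold higher with Noggin at day 4, and 2 other Nsdhl probes gave differences of 0.27 and 0.46. The first of these passed at day 2 against day 0 (0.52, adjusted p = 0.0168), and the second did not (adjusted p = 0.132).

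The other measured post-squalene genes were Tm7sf2, Dhcr7, Sc5d and Ebp. Tm7sf2, a sterol reductase, read 7.39, 7.98 and 8.10 with Noggin, against 7.39, 8.04 and 7.71 in mock, and rose by 0.62 ± 0.13 at day 2 (adjusted p = 0.0221), while its other probe did not pass (0.18, adjusted p = 0.258). Dhcr7, the dehydrocholesterol reductase mutated in Smith-Lemli-Opitz syndrome, read 7.16, 7.75 and 7.86 with Noggin, against 7.15, 7.83 and 7.29 in mock, and rose by 0.64 ± 0.17 (adjusted p = 0.0429). Dhcr7 was 1.49-fold higher with Noggin at day 4, with mock close to the floor. Sc5d, a sterol desaturase, read between 7.34 and 7.75 on all 6 arrays, highest with Noggin at day 4. Ebp, the sterol isomerase, read 9.18, 8.93 and 9.52 with Noggin, against 9.20, 9.15 and 9.25 in mock. Ebp was the 1 member with lower signal at day 2 than at day 0 in both treatments, and it passed in no contrast.

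**Figure D2:**
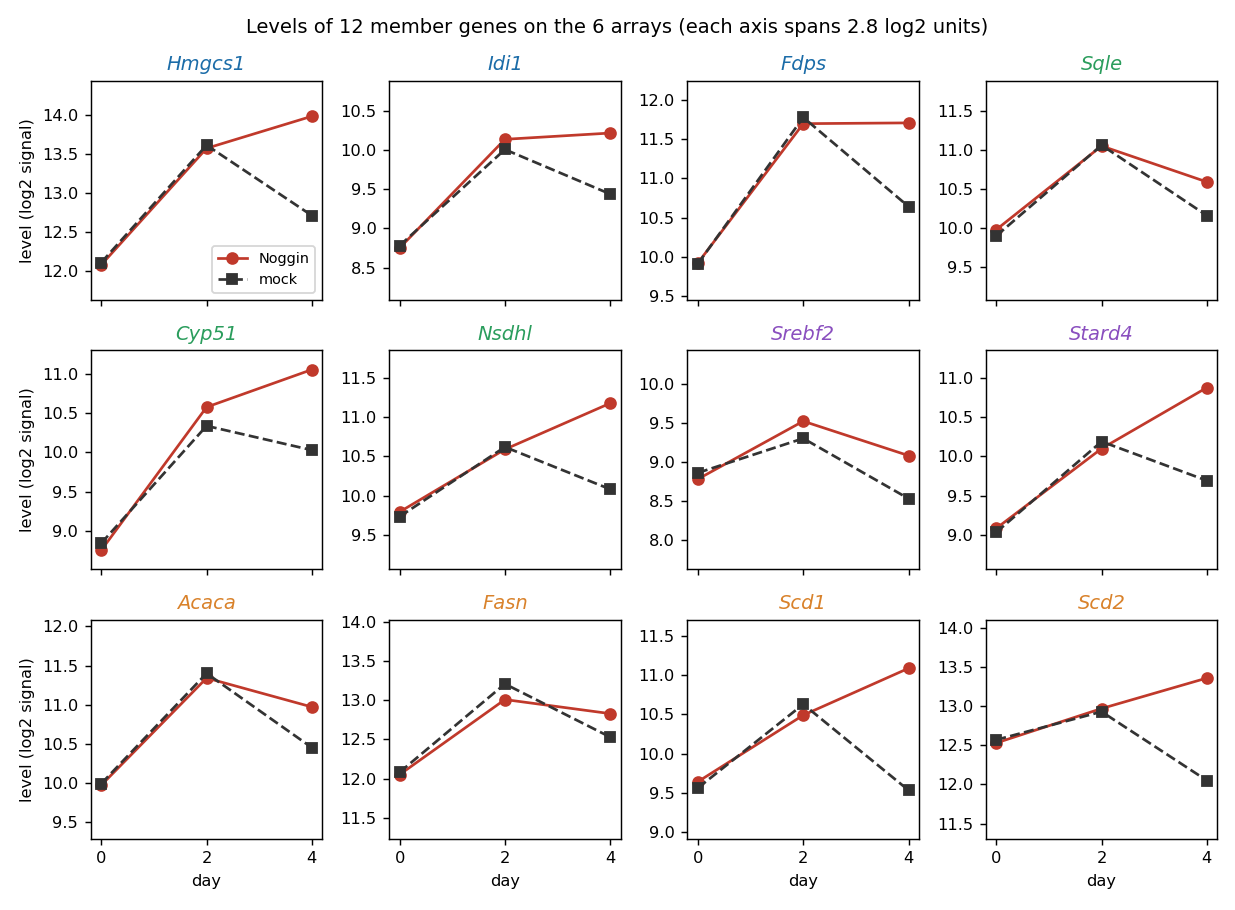
Log2 signal by day for 12 member genes, with red circles for the Noggin and black squares for the mock array of each day, 1 array per point. The lines lie close until day 2, with Noggin minus mock up to 0.24 there (Cyp51), and lie further apart at day 4. Mock Hmgcs1 is then at 12.71 and Noggin Hmgcs1 at 13.98. In Fasn the difference is -0.20 at day 2 and 0.30 at day 4.

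Regulation and transport had 3 of 4 listed genes measured. Srebf2, which encodes the sterol regulatory element-binding protein that acts mainly on cholesterol genes, read 8.78, 9.52 and 9.08 with Noggin, against 8.86, 9.30 and 8.53 in mock. On this brightest probe it peaked at day 2 in both treatments, with mock at day 4 the lowest of the 6 arrays. Srebf2 rose by 0.59 ± 0.16 at day 2 (adjusted p = 0.0416) and fell by 0.60 ± 0.16 at day 4 against day 2 (adjusted p = 0.0411). Neither of its other probes passed the day 2 rise (adjusted p = 0.113 and 0.405) or the day 4 fall (adjusted p = 0.0988 and 0.972), and 1 of them had its highest level in Noggin at day 4, 8.35. The 3 probes were higher with Noggin than in mock at day 4 by 0.44 to 0.62.

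Insig1, which retains the precursor of these factors in the endoplasmic reticulum and is itself one of their targets, read 7.33, 8.01 and 7.59 with Noggin, against 7.46, 8.0 and 7.52 in mock. Its brightest probe therefore rose and fell alike in both treatments, by 0.61 ± 0.09 at day 2 (adjusted p = 0.00806) and by -0.45 ± 0.09 at day 4 against day 2 (adjusted p = 0.0213). The day 4 difference of this probe was 0.07, and its 2 dimmer probes gave 0.27 and 0.34. Of these the first passed at day 2 (adjusted p = 0.0194) and the second did not (adjusted p = 0.192). The first was above the median on the 2 day 2 arrays only and entered the test through them. Stard4, a soluble sterol carrier, read 9.08, 10.10 and 10.88 with Noggin, against 9.03, 10.19 and 9.69 in mock. Noggin at day 4 was the highest of its 6 arrays, 2.28-fold above mock, and a second probe gave a difference of 0.93. Stard4 rose at day 4 against day 0 by 1.23 ± 0.31 (adjusted p = 0.0278), while its day 2 difference of 1.09 ± 0.31 missed the threshold (adjusted p = 0.0509) and that of the second probe, 1.20, passed (adjusted p = 0.0154).

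All 8 listed genes of the fatty acid steps were measured, and their day 4 median difference was 0.41 (8 of 8 higher with Noggin). Only the desaturases Scd1 and Scd2 exceeded 1.5-fold, among these 8 genes on these 2 arrays. Scd1, a stearoyl-CoA desaturase, read 9.64, 10.49 and 11.09 with Noggin, against 9.56, 10.63 and 9.53 in mock. Its paralogue Scd2 read 12.53, 12.97 and 13.36 with Noggin, against 12.57, 12.93 and 12.05 in mock. In mock both had lost their whole day 2 gain by day 4, Scd2 ending 0.52 below day 0, and with Noggin both ended at their highest level. The day 4 differences were 1.56 (2.95-fold) for Scd1 and 1.31 (2.48-fold) for Scd2, in place 34 and 50 from the top among 12577 probes, followed by Hmgcs1 in place 53. Neither desaturase passed a limma day contrast (Scd1 at day 2 against day 0, 0.96 ± 0.40, adjusted p = 0.135).

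The enzymes that build palmitate rose at day 2 and then came down in both treatments. Acly, which supplies cytosolic acetyl-CoA, read 12.20, 12.69 and 12.29 with Noggin, against 12.16, 12.59 and 11.91 in mock. Acaca, the acetyl-CoA carboxylase, read 9.97, 11.34 and 10.97 with Noggin, against 9.99, 11.40 and 10.45 in mock. Fasn, the fatty acid synthase, read 12.05, 13.01 and 12.83 with Noggin, against 12.08, 13.21 and 12.53 in mock. All 3 were lower at day 4 than at day 2 in each treatment, by more in mock. At day 2 the rises were 0.46 ± 0.11 for Acly (adjusted p = 0.032), 1.39 ± 0.16 for Acaca (adjusted p = 0.00424) and 1.04 ± 0.13 for Fasn (adjusted p = 0.00552). At day 4 against day 2 Acly fell by 0.54 ± 0.11 (adjusted p = 0.0224) and Acaca by 0.66 ± 0.16 (adjusted p = 0.0349), while the Fasn difference was -0.43 ± 0.13 (adjusted p = 0.0673).

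Elovl6 and the Fads genes serve elongation and polyunsaturated synthesis. Elovl6, the elongase of palmitate, read 9.86, 10.49 and 10.04 with Noggin, against 9.81, 10.35 and 9.72 in mock. Its course resembled that of Acly, with a rise of 0.58 ± 0.10 at day 2 (adjusted p = 0.0115) and a fall of 0.54 ± 0.10 from there at day 4 (adjusted p = 0.0169). Its other probe also fell at day 4 against day 2 (adjusted p = 0.0174), but its day 2 difference of 0.36 missed the threshold (adjusted p = 0.086). Fads2, a fatty acid desaturase, read 7.32, 7.81 and 7.81 with Noggin, against 7.05, 7.82 and 7.47 in mock, and rose by 0.63 ± 0.11 at day 2 (adjusted p = 0.0133). At day 0 this probe lay below the median on both arrays, where its Noggin minus mock value was 0.27, against 0.02 for the second Fads2 probe. Fads1, its partner desaturase, ranged from 11.04 to 11.62, with its highest level in Noggin at day 4, and did not pass at day 2 (0.38 ± 0.12, adjusted p = 0.0786).

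By heading, the day 2 rise passed for 5 of 6 tested mevalonate genes, 6 of 10 squalene and post-squalene genes, 2 of 3 regulators and transporters and 5 of 8 fatty acid genes. The SEs of these contrasts also hold the day 4 difference between treatments. A miss therefore does not mean that the 2 treatments disagreed at day 2. Counting every tested probe, 25 of 40 passed, in 20 genes. These counts stand beside the 14.3% of all 15168 tested probes that rose. Some member probes entered the test only through arrays of days 2 and 4. The median fitted change over the 28 measured genes was 0.71, against 0.01 over all tested probes. Each treatment gave this rise on its own pair of arrays: 27 of 28 genes were higher at day 2 than day 0 with Noggin (median 0.72) and 27 of 28 in mock (median 0.82), against 51% and 50.7% of tested probes. The rises in the 2 treatments differed by a median of 0.09 in absolute size, and by most for Acat3 (0.52) and Cyp51 (0.33). Day 0 cells were also the only ones that were not embryoid bodies and had LIF, so time, aggregation and LIF cannot be told apart in the contrasts with day 0. The calls rest on all 4 arrays of days 0 and 2, since they were lost in the fit without any 1 of them.

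**Figure D3:**
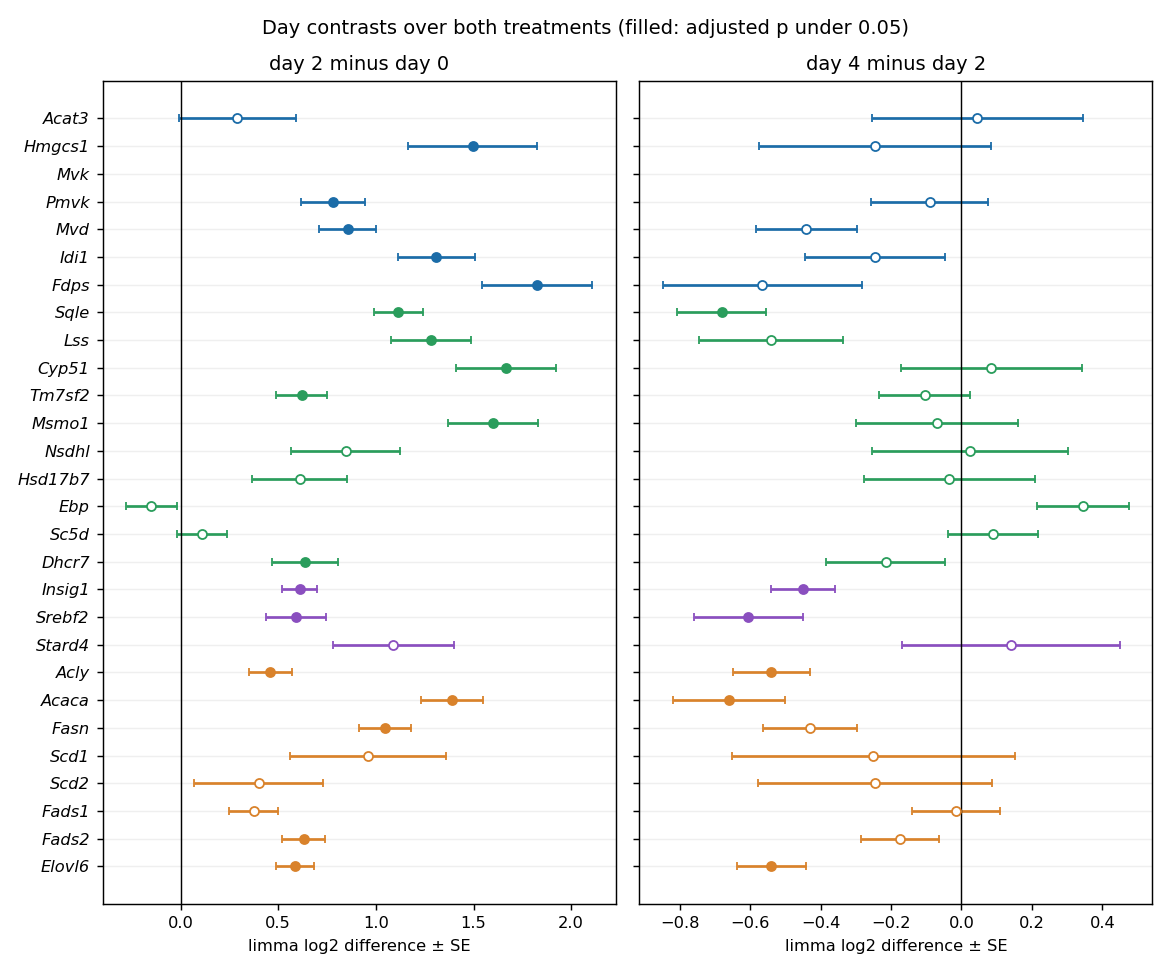
Fitted log2 differences with standard errors from the limma model over the 6 arrays, day 2 minus day 0 on the left and day 4 minus day 2 on the right, with filled symbols for an adjusted p under 0.05 and no symbol for the untested Mvk. On the left 18 symbols are filled, all right of 0, and on the right 6 are filled, all left of 0.

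At day 4 against day 0, 13 of the 27 tested genes were still up and 0 were down, where 19.5% of probes rose and 19.1% fell. They were Hmgcs1, Pmvk, Idi1, Fdps, Sqle, Lss, Cyp51, Tm7sf2, Msmo1, Stard4, Acaca, Fasn and Fads2, with the largest change for Cyp51 (1.75 ± 0.26, adjusted p = 0.00566). At day 4 against day 2, 0 rose and 6 fell (Sqle, Insig1, Srebf2, Acly, Acaca and Elovl6), where 12.5% of probes rose and 13.1% fell. Both day 4 contrasts average arrays that differ by treatment. A fit without 1 day 4 array takes its day 4 value from a single array and holds no day 4 spread, so its calls are not given. By treatment, 28 of the 28 genes were higher at day 4 than at day 0 with Noggin (median 0.765). In mock 21 were higher and 7 lower (median 0.215). Of the 15168 tested probes, 7286 were higher with Noggin and 7295 in mock. Without any 1 array of day 0 or day 2, 0 genes passed in either day 4 contrast.

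Set out by treatment, the step after day 2 ran up with Noggin and down in mock for 17 of the 28 genes, and down in both for 9. With Noggin, 18 of the 28 genes were higher at day 4 than at day 2, 9 were lower and Fads2 was equal, with a median change of 0.12. In mock, 1 was higher (Ebp, by 0.10) and 27 were lower, with a median change of -0.56. Among tested probes, 52.2% were lower at day 4 with Noggin and 53.3% in mock. Acat3, Hmgcs1, Nsdhl, Hsd17b7, Stard4, Scd1 and Scd2 went up by 1.25-fold or more with Noggin and down by 1.25-fold or more in mock, a combination seen in 0.316% of the 15168 tested probes. That fold was chosen after the values were seen, and the opposite movement was not tested, since each point is 1 array. The fatty acid steps had a median change of -0.09 with Noggin and -0.68 in mock, the squalene and post-squalene steps 0.31 and -0.47, the mevalonate steps 0.08 and -0.63, and the regulators and transport -0.42 and -0.50. The medians of the fatty acid and the regulator headings were thus below 0 in both treatments. Over the 28 genes, the size of the mock rise at day 2 and the Noggin minus mock difference at day 4, which share no array, had a Pearson r of 0.54 and a Spearman rho of 0.57, given as a description of genes that are not independent.

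**Figure D4:**
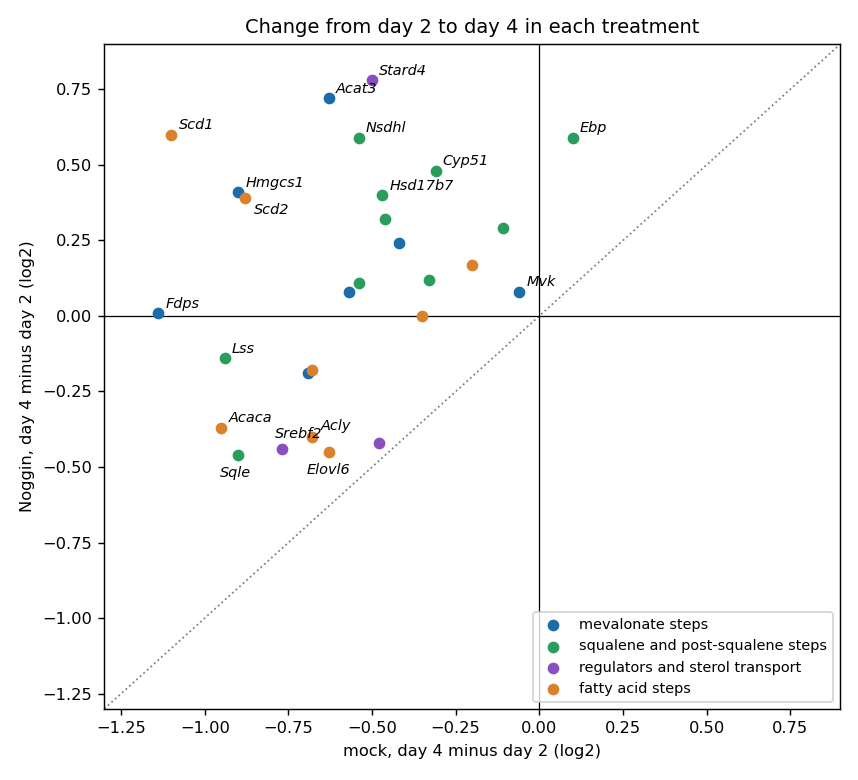
Change in log2 signal at day 4 against day 2 for the 28 genes, Noggin on the vertical and mock on the horizontal axis, coloured by heading, with the diagonal of equal change dotted. All 28 points lie above the diagonal, 27 lie left of 0 on the mock axis, and Scd1 stands at 0.60 with Noggin and -1.10 in mock.

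Summed over a heading, the quantile-scaled signal of the mevalonate genes was 6388, 17513 and 21756 at days 0, 2 and 4 with Noggin, against 6516, 18112 and 9755 in mock. The squalene and post-squalene genes summed to 4880, 10498 and 12487 with Noggin and to 4794, 9933 and 6973 in mock. The regulators and Stard4 summed to 1142, 2089 and 2618 with Noggin and to 1163, 2054 and 1379 in mock. For the fatty acid genes the sums were 19870, 31371 and 31414 with Noggin and 19894, 31947 and 19498 in mock. In mock the fatty acid sum at day 4 was thus slightly below that at day 0, while the other sums stayed above it. The brightest probes weigh most in such sums.

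Other genes of the same pathways, taken from lists outside the 28, had list medians nearer 0 at day 4, a difference between lists that was not tested. Among 11 further sterol pathway genes, which include the SREBP proteases Mbtps1 and Mbtps2, Insig2 and Ggps1, 3 were higher with Noggin at day 4, with a median of -0.05, a range from -0.42 (Mbtps1) to 0.08 (Cyb5r3) and 0 of them at 1.5-fold. At day 2 against day 0, 1 of 9 tested rose (Lbr, a nuclear envelope protein with sterol reductase activity, 0.48, adjusted p = 0.0125) and 2 fell. The falls were those of the acetyl-CoA synthetase Acss2 (-0.65, adjusted p = 0.00475) and of Pgrmc1 (-0.54, adjusted p = 0.0487). These shares stand beside 14.3% of all tested probes that rose and 13.3% that fell. Among 12 further genes of fatty acid and glycerolipid synthesis, 8 were higher with Noggin at day 4, with a median of 0.12. The elongase Elovl5 was the 1 of them past 1.5-fold, at 11.26 with Noggin and 10.63 in mock. At day 2 against day 0, 4 of these 12 rose (Me1, Elovl5, Tecr and Acsl4) and 0 fell, against the same 14.3% and 13.3%, with Acsl4, an acyl-CoA synthetase for polyunsaturated fatty acids, up by 1.81 (adjusted p = 0.0012).

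Markers of cell states moved on the same arrays. At day 4, 0 of 9 pluripotent stem cell markers were higher with Noggin than in mock, with a median of -2.29, and their summed signal was 55771, 16716 and 6108 over days 0, 2 and 4 with Noggin, against 53962, 20384 and 19785 in mock. All 5 measured primitive streak and mesoderm markers of 8 listed were higher with Noggin at day 4 (median 1.76, summed signal 10506 with Noggin and 2255 in mock, and 869 to 1002 on the other 4 arrays). All 8 cardiac markers were nominally higher (median 0.46, summed signal 3407 with Noggin and 2216 in mock, and 1446 to 1545 earlier), while Nkx2-5, Myh6 and Tnnt2 stayed between 6.98 and 7.43, near the floor. Of 6 blood and endothelial markers 5 were higher (median 1.14, sums of 4963 with Noggin and 2372 in mock, and 1384 to 1701 earlier). Pecam1, listed here as an endothelial marker, went the other way, with a difference of -0.69. Its highest levels were those of the day 0 stem cells, 9.22 with Noggin and 9.32 in mock. Cdh5 stayed between 6.88 and 7.22, near the floor. Of 7 endoderm markers 2 were higher, Gata6 by 0.67 and Col4a1 by 1.46 (median -0.13, sums of 3661 with Noggin and 2527 in mock, and 1147 to 1298 earlier). Afp and Apob, which mark visceral endoderm, lay between 6.86 and 7.26, near the floor. At day 4 against day 0, Gata6 (2.63, adjusted p = 0.00104) and Col4a1 (1.585, adjusted p = 0.0175) rose by limma, where 19.5% of probes rose and 19.1% fell. Apoa1 and Amn did not pass (adjusted p = 0.193 and 0.631). Foxa2 was above the median on 2 arrays only, those of day 4 (8.37 with Noggin, 8.57 in mock). It entered the test through these arrays, so its rise is no test. The part of these cell states in the day 4 difference of the sterol and fatty acid genes was not tested.

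**Figure D5:**
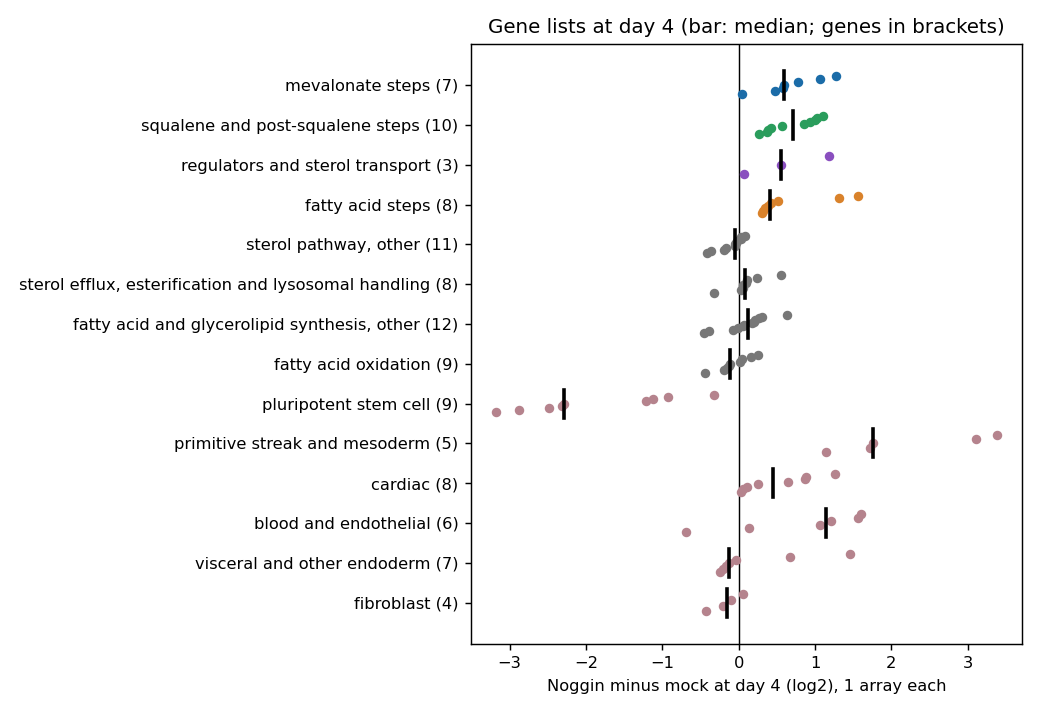
Noggin minus mock at day 4 in log2 units for each measured gene of the 4 headings, of 4 further lipid lists and of 6 marker lists, with a bar at the median of each list and the number of genes in brackets. The 4 headings have all their points right of 0, the further lipid lists scatter about 0, and the pluripotent markers lie left of it with a median of -2.29.

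Fibroblast markers, listed because stem cell cultures can hold such cells, moved with the day 2 contrast. Their summed signal over the 4 measured of 7 listed was 2947, 842 and 573 at days 0, 2 and 4 with Noggin, against 2274, 795 and 644 in mock. Dcn, a matrix proteoglycan, fell by 2.58 at day 2 against day 0 (adjusted p = 0.00271) and Thy1 by 0.97 (adjusted p = 0.00417), while Col1a1 and Postn stayed between 6.99 and 7.45 on all arrays, near the floor. Their part in the day 2 rise was not tested. Of 4 listed liver and fat markers, 2 were measured, the fat markers Fabp4 and Adipoq, so liver was not covered. Both stayed between 7.13 and 7.44 on all 6 arrays, with summed signals of 300 to 340.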

How the data were processed

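Total RNA of J1 cells (Trizol extraction, per the labels' protocols) was turned into biotinylated cRNA and stained with streptavidin-Cy3 on 6 arrays, 1 per treatment and day. The deposited table of each array holds raw intensity values for 27496 probes, per the file headers, and the authors' matrix holds log2 values for 27495. By comparison with the array tables, the matrix is the quantile-normalised log2 intensity without background correction or centring. No detection values were used, and the scanner software is not given in the sources used here.

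The matrix was used as the main setting. Probes took their gene from the platform annotation (19420 with 1 symbol, 6 with several, 8069 with none), and 0 symbols changed when updated. Matrix rows were linked to array probes by equal values within 0.006 on the log2 scale (27491 links, with 2215 of 2215 clone accessions alike). Where a gene had several probes, the brightest on average represented it. Probes above the median on at least 2 of 6 arrays were kept (15168), and limma 3.58.1 in R 4.3.3 fitted day and treatment as additive terms, with 2 residual and 3.53 prior degrees of freedom and Benjamini-Hochberg adjustment over all probes at 0.05. Single days gave differences of probes above the median on both arrays, called at 1.5-fold. Summed signals are sums of the quantile-scaled intensities. For arrays, their number limits the precision. The fit was tested on simulated data.

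Named genes were all members, and, of the further lists, those at its extremes, past the threshold or defining a cell type. Members and lists were chosen with earlier results of these data known. Alternatives were normexp (offset 50) with quantile normalisation, median scaling, cyclic loess, no filter, a filter at the 75th percentile, the mean of a gene's probes, 2-fold in place of 1.5-fold, no day term, and leaving out each array or both arrays of a day. Promoter windows came from RefSeq (GRCm38.p6).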

Additional observations from a re-analysis of the deposited data

Results flagged for a closer look

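In 7 genes the change at day 4 against day 2 was at least 1.25-fold up with Noggin and at least 1.25-fold down in mock, which puts these results forward for a closer look. Of the 28 genes, 17 changed in these directions by any amount. The fold was chosen after the values were seen, and 0.316% of tested probes met it in this way. On the log2 scale, Scd1 changed by 0.60 with Noggin and -1.10 in mock, Scd2 by 0.39 and -0.88, and Hmgcs1 by 0.41 and -0.90. Stard4 changed by 0.78 with Noggin and -0.50 in mock, Nsdhl by 0.59 and -0.54, Hsd17b7 by 0.40 and -0.47, and Acat3 by 0.72 and -0.63. Acat3 also had Noggin minus mock differences of opposite sign on 2 days, 0.58 at day 4 and -0.77 at day 2. Each value is 1 array against 1, and none of these differences between treatments was tested.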

How the results depend on the processing

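Of the counts of members called, those at day 4 (12 higher with Noggin, 0 lower) lay between 8 and 14 higher and at 0 lower under the other scalings, filters, probe summaries and folds. The 1 member lower with Noggin at day 2 became 0 with the filter at the 75th percentile and 0 at 2-fold, since the first drops the probe of Acat3 and the second is the stricter fold. Day 2 against day 0 gave 13 to 19 rises under the other scalings, filters and probe summaries, day 4 against day 0 gave 10 to 15, and day 4 against day 2 gave 5 to 6 falls. Leaving out arrays, which leaves 1 residual degree of freedom, gave 0 to 24 rises at day 2 against day 0, 0 to 21 rises and 0 to 1 falls at day 4 against day 0, and 0 to 7 rises and 0 to 13 falls at day 4 against day 2. The Noggin contrast over days stayed at 0 under the other scalings, filters and probe summaries, and it has little power for a difference confined to 1 day.

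All 28 genes were above mock at day 4 under all 4 scalings, with medians of 0.50 to 0.74. At day 2, median scaling gave 20 higher of 28 and a median of 0.08, where all tested probes moved by 0.06, against 11 higher and a median of -0.03 in the deposited values. Of single-gene values under the alternatives, 1401 kept direction and side of the threshold, 163 no longer passed, 41 newly passed, 8 crossed 1.5-fold on a single day, 92 differences that had not passed changed sign, and 0 called values did. No paired analysis was possible because each group has 1 array, so no replicate number pairs samples beyond the day term that the model already has. Signal near the floor limits Mvk, Sc5d, Mvd, Dhcr7, Insig1 and Fads2. Background correction enlarged their day 4 folds, for Dhcr7 to 1.81, against 1.49 in the deposited values, and for Fads2 to 1.42, against 1.27. It also enlarged folds of somewhat brighter genes, as for Acat3 to 1.70, against 1.495.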

Other observations

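Lists of genes that export or burn the products had small differences between treatments at day 4 as medians. Of 8 measured genes of sterol efflux, esterification and lysosomal handling, 7 were higher with Noggin at day 4, by a median of 0.08, and the scavenger receptor Scarb1 had the widest margin, at 9.28 with Noggin and 8.72 in mock. Over both treatments, Npc1, which exports cholesterol from lysosomes, rose by 0.90 at day 4 against day 2 (limma adjusted p = 0.00963), and its partner Npc2 rose by 0.62 (adjusted p = 0.0155) after a fall of 0.60 at day 2 (adjusted p = 0.0139). Abcg1, a sterol exporter, fell by 1.05 at day 4 against day 2 (adjusted p = 0.0044).

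Of 9 measured genes of fatty acid oxidation, 4 were higher with Noggin at day 4, with a median of -0.11 and a range from -0.44 for Hadhb to 0.25 for Cpt2. Acadm, the medium-chain acyl-CoA dehydrogenase, fell by 0.54 at day 2 against day 0 (limma adjusted p = 0.0122), and by day 4 its change from day 0 was -0.96 (adjusted p = 0.00195). Cpt2, the inner carnitine palmitoyltransferase, rose by 1.0 at day 4 against day 0 (adjusted p = 0.00227). The acetyl-CoA carboxylase Acacb, whose product restrains oxidation, was 0.45 lower on the log2 scale with Noggin than in mock at day 4 and fell by 0.78 over both treatments at day 4 against day 2 (adjusted p = 0.0152).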
